A study of Mus musculus with 2 samples.

Results

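The Rtl1-antisense miRNA genes are 9 plus-strand hairpin genes of mouse chromosome 12: Mir673, Mir337, Mir540, Mir665, Mir431, Mir433, Mir127, Mir434 and Mir136. They were chosen by name and position, by no rule on their levels but with earlier results of these data known. They were looked up by Ensembl identifier with the version dropped. Of the 9 genes, 8 were among the 1973 miRNA genes counted, and Mir136 had no row of its own. Mir136 also starts just past the end of the coordinate window used to define the group and was kept by name. The same window holds Mir770, Mir493, Mir3070a, Mir3070b and Mir432, which were counted but are not in the list of names. Each of them had a lower mean level than every counted gene of the group, so the group is not all that the window holds. The libraries were microRNA-seq of total RNA from limbs of B6NCrl mouse embryos at embryonic day 13.5, healthy and of mixed sex. There was 1 group with 2 biological replicates, separate tissue samples under the same donor label, and no treated or mutant group. Males and females were pooled, so each sample held several embryos, and the number of embryos or litters behind it was not stated. Whether the replicates shared steps of their preparation is likewise unknown, so the spread between them may be partly technical.

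The Dlk1-Dio3 domain is imprinted. Its non-coding RNAs (Meg3, the Rtl1-antisense transcript, Rian and Mirg) are made from the maternal chromosome, and its protein-coding genes Dlk1, Rtl1 and Dio3 mainly from the paternal one. Rtl1 is a gene derived from a retrotransposon that mouse placenta and fetal muscle require. The miRNAs cut from the antisense transcript pair fully with Rtl1 mRNA and can direct its cleavage, so the maternal strand restrains the paternal gene. Meg3 opens the maternal transcription unit, and the larger Mir379 to Mir410 cluster lies at its far end.

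Position split the genes into 2 sets. Mir431, Mir433, Mir127, Mir434 and Mir136 lay wholly opposite coding sequence of Rtl1 (mm10 chr12:109589193-109600330, minus strand). Mir673, Mir337, Mir540 and Mir665 lay before Rtl1 in the direction of antisense transcription and overlapped no annotated exon of it. The mature sequences of the genes opposite Rtl1 are shown because each is the exact complement of a stretch of the Rtl1 messenger RNA. They are from RefSeq (GRCm38.p6, plus strand), 5′ to 3′, with the seed, bases 2 to 8, in capitals:
miR-431-5p: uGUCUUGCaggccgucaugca
miR-431-3p: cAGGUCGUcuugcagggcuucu
miR-433-5p: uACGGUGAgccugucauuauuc
miR-433-3p: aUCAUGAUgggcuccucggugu
miR-127-5p: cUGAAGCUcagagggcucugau
miR-127-3p: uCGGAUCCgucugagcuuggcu
miR-434-5p: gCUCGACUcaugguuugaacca
miR-434-3p: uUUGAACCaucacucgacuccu
miR-136-5p: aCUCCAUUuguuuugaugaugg
miR-136-3p: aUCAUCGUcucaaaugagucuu

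Each of these 10 mature sequences matched the Rtl1 transcript (6358 bases in 2 exons) at 1 place over its full length, and all 10 sites were in the coding part, bases 148 to 5379. Counted from the 5′ end of the transcript, the hairpins ran Mir136 (163 to 224), Mir434 (952 to 1045), Mir127 (2636 to 2705), Mir433 (3713 to 3836) and Mir431 (5014 to 5104). The sites of the miRNAs of the 2 most abundant genes are shown with the bases that face the seed in capitals, written as DNA in the direction of the Rtl1 message:
site of miR-127-3p, bases 2642 to 2663: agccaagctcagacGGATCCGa
site of miR-431-5p, bases 5072 to 5092: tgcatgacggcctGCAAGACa
The full match follows from the overlap of the genes on opposite strands and is not a measure of cleavage. None of the 8 mature sequences from Mir673, Mir337, Mir540 and Mir665 had a full-length match in Rtl1.

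The hairpin of Mir127 (mm10 chr12:109592846-109592915) shows the layout of the group, with both mature arms in capitals and the loop between them:
Mir127: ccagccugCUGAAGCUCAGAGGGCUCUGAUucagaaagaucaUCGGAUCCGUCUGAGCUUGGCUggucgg
Counts were given per hairpin gene, so reads of the 5′ and 3′ arms were not told apart in any value below. All 9 genes matched RefSeq, with 18 mature sequences and 18 different seeds, so no seed was shared within the group. Sequence shared with another locus was short. The longest stretch that a hairpin had in common with an annotated miRNA gene elsewhere, on either strand, was 14 bases, and no mature sequence occurred in the transcript of another gene outside the overlapping Rtl1, Mir3071 and Mir3544. The genome outside annotated transcripts was not searched.

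All 8 counted genes were detected, here meaning at least 10 counts on the gene's own strand in each library, while 18.9% of all counted miRNA genes were. The list of names leaves out scarcer genes of its window, of which Mir432 and Mir3070b were not detected. Together the 8 genes held 1.99% ± 0.07 (SD, n = 2) of sense counts. The sum was 114660 counts in replicate 1, a share of 1.93% (exact 95% binomial interval 1.92 to 1.95). It was 122433 counts in replicate 2, a share of 2.04% (2.03 to 2.05). The 2 intervals, which take each read as a separate molecule, did not overlap, and replicate 2 was higher. Such differences were common in these libraries. By an exact binomial test on counts, 72.1% of the 190 genes of at least 100 CPM had an adjusted p under 0.05. Levels below are CPM, the count scaled to a total of 1000000 sense counts in genes. Those totals were 5927321 of 12407140 reads in replicate 1 and 6003632 of 12657170 reads in replicate 2. Intervals cover counting error only, since nothing tells PCR copies from separate RNA molecules here.

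The label limb held against its markers: Mir196b and Mir10b of the Hox clusters, cartilage Mir140, muscle Mir206 and mesenchymal Mir214 lay between 3841 and 75238 CPM by mean. Of markers of other tissues, liver Mir122 lay at 73.7 ± 9.8 CPM and pancreatic Mir216a at 0.926 ± 0.838 CPM. The neuronal Mir124a-1, Mir124a-2 and Mir124a-3 had 0 counts, which says nothing of their level, since they make the same mature miRNA and reads that map to several places entered no gene. Muscle Mir1a-1, a miRNA with more than 1 gene copy, likewise had 1 count in each library. Mir375, a marker of pancreatic islets, lay at 838 ± 136 CPM. In such whole tissue, fewer cells of a type and less RNA per cell cannot be told apart.

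Mir127, whose loss in mice disturbs the placental labyrinth, was the most abundant gene of the group. It had 47981 counts in replicate 1 and 50501 in replicate 2, or 8095 CPM (95% Poisson interval 8023 to 8168) and 8412 CPM (8339 to 8485). Its mean of 8253 ± 224 CPM (SD, n = 2) made it the 26th most abundant miRNA gene by these counts, which leave out multimapping reads. It held that place in each library. It alone gave 41.5% ± 0.42 of the group's counts.

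Mir431 (mm10 chr12:109590447-109590537), reported in mouse to act on Pax7 in muscle precursor cells, came next. Its 33945 and 37705 counts in replicates 1 and 2 were 5727 CPM (5666 to 5788) and 6280 CPM (6217 to 6344), a mean of 6004 ± 391 CPM and rank 34. Mir127 was 1.41-fold above Mir431 in replicate 1 and 1.34-fold above it in replicate 2. The pair made up 71.7% ± 0.42 (SD, n = 2) of the counts of the 8 genes.

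Mir434 and Mir433, the other counted genes opposite Rtl1, were several-fold lower. Mir434 (chr12:109594506-109594599) had 9625 and 9638 counts in replicates 1 and 2, or 1624 and 1605 CPM, a mean of 1615 ± 13 CPM. Mir433 (chr12:109591715-109591838), reported to restrain bone formation from mouse mesenchymal cells, had 5815 and 6702 counts, or 981 and 1116 CPM, a mean of 1049 ± 96 CPM. Mir433, higher in replicate 2, had the widest spread between libraries in the group, a coefficient of variation of 9.12%.

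**Figure D1:**
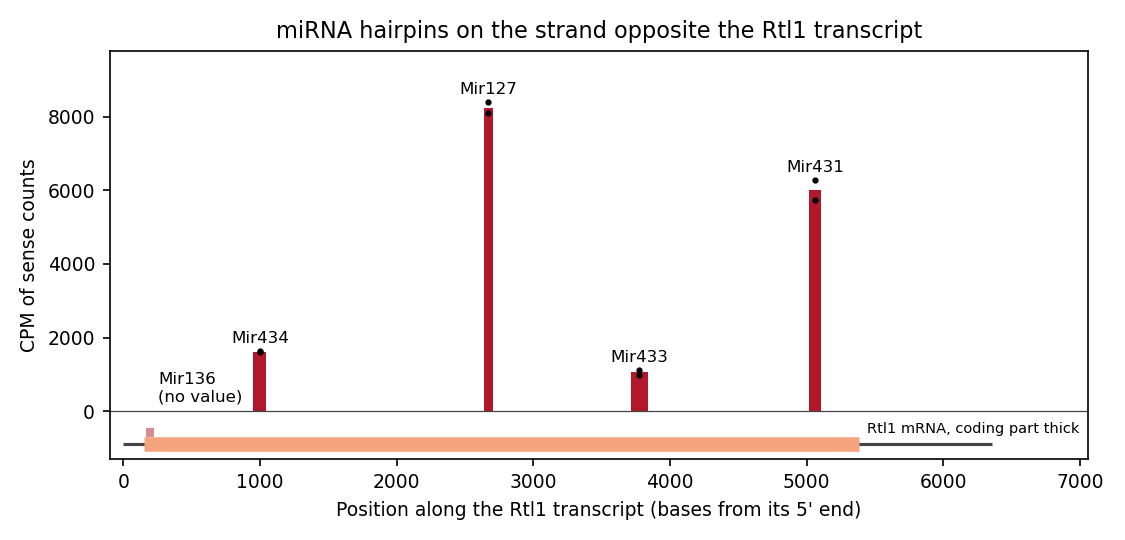
Mean CPM of sense counts of the miRNA hairpins on the strand opposite Rtl1 (bars, mean of 2 limb libraries; points, each library), placed by bases from the 5′ end of the Rtl1 transcript, with its coding part thick. Mir127 at 8253 CPM and Mir431 at 6004 CPM stand above Mir434 at 1615 CPM and Mir433 at 1049 CPM, and Mir136, drawn below the axis, has no value.

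The genes before Rtl1 were scarcer as a set, though not each below each gene opposite it. Mir337, Mir540 and Mir665 sat within 619 bases, ending 2785 bases short of Rtl1. Mir337 (chr12:109585789-109585885) had 8430 and 9103 counts in replicates 1 and 2, or 1422 and 1516 CPM, a mean of 1469 ± 66 CPM. That placed it above Mir433 in both libraries and below Mir434.

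Mir540 (chr12:109586080-109586146) had 4472 and 4512 counts, or 754 and 752 CPM in replicates 1 and 2, the closest pair of values in the group. Mir665 (chr12:109586314-109586407) had 3669 and 3496 counts, or 619 and 582 CPM. Despite gaps of 194 and 167 bases between them, Mir337 was higher than Mir540, and Mir540 than Mir665, in both libraries.

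Mir673 (chr12:109571990-109572080) stood apart at the low end, 263 bases past the annotated end of Meg3 and 13708 bases from Mir337. It had 723 and 776 counts in replicates 1 and 2, or 122 CPM (113 to 131) and 129 CPM (120 to 139), a mean of 126 ± 5.1 CPM and rank 175. Mir127 was 65.7-fold ± 0.91 (SD, n = 2) above it.

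**Figure D2:**
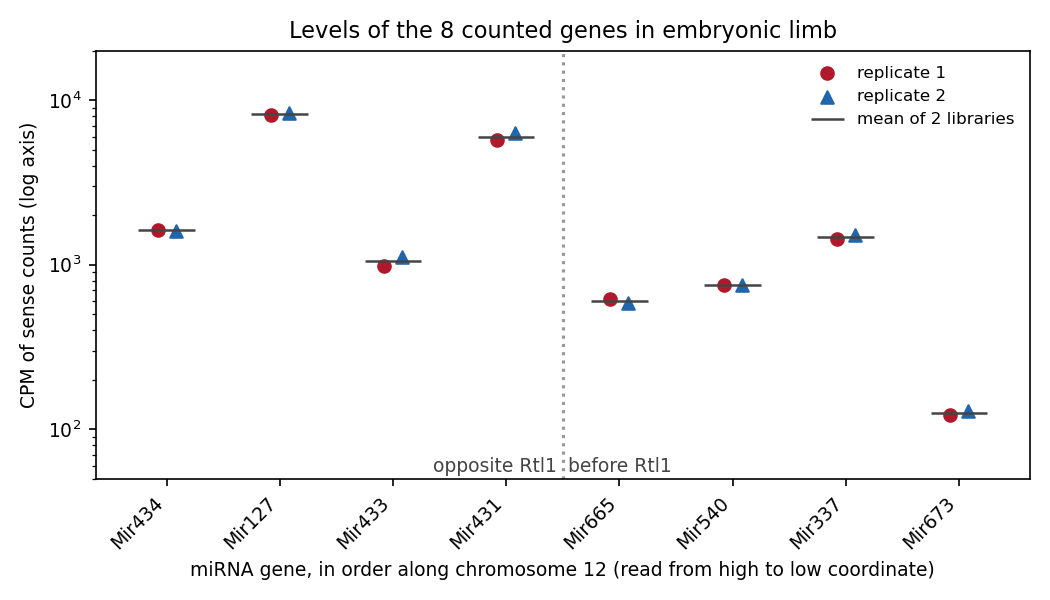
CPM of sense counts on a log axis for the 8 counted genes in replicate 1 (circles) and replicate 2 (triangles), with lines for the mean of 2 libraries and genes from high to low coordinate on chromosome 12. The genes opposite Rtl1 span 981 to 8412 CPM and those before Rtl1 122 to 1516 CPM, so the sets overlap, and the libraries lie close together for every gene.

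The order Mir127, Mir431, Mir434, Mir337, Mir433, Mir540, Mir665, Mir673 was the same in both libraries. For all 7 pairs of neighbours in that order, the ranges over the 2 libraries did not overlap. The narrowest step was Mir434 over Mir337, 1.14-fold in replicate 1 and 1.06-fold in replicate 2, which is of the size of the biological coefficient of variation of these libraries, 0.111 over 372 genes (edgeR common dispersion). The widest was Mir665 over Mir673, 5.07-fold and 4.51-fold. With 2 libraries a two-sided exact permutation test cannot give a p below 0.5, so no step was tested. Each read stands for a short RNA and levels were not divided by hairpin length (67 to 124 bases among the counted genes), and how readily each sequence enters a library was not measured, so the order is one of read counts.

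In sum, the 4 counted genes opposite Rtl1 held 1.69% ± 0.07 and the 4 before it 0.295% ± 0.004 of sense counts (SD, n = 2). The log2 ratio was 2.49 in replicate 1 and 2.55 in replicate 2, a mean of 2.52 ± 0.04, or 5.74-fold. The genes opposite Rtl1 made up 85.2% ± 0.33 of the group. The sets overlapped gene by gene, since Mir337 lay above Mir433.

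**Figure D3:**
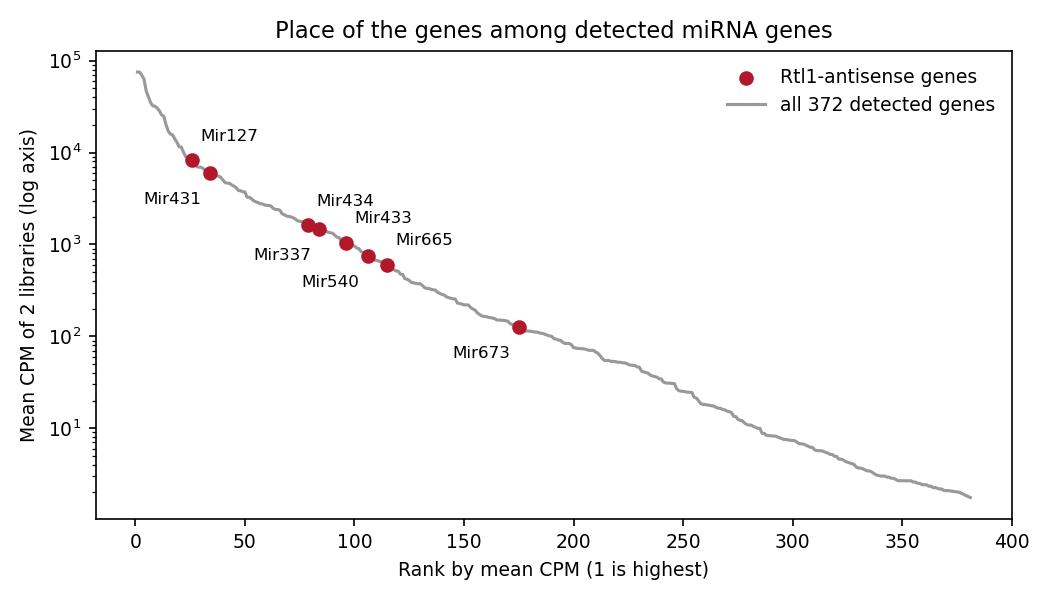
Mean CPM of 2 limb libraries on a log axis against rank for the 8 counted Rtl1-antisense genes (points) and all 372 detected miRNA genes (line). Mir127 at rank 26 and Mir431 at rank 34 stand first, 5 of the 8 genes lie within the first 100 ranks, and Mir673 is at rank 175.

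Among all counted miRNA genes of the limb, 5 of the 8 genes were within the first 100 ranks and none within the first 25. Their median level was 1259 ± 81 CPM, against 105 ± 3.4 CPM for the 372 detected genes (SD, n = 2). Multimapping reads, 30.8% of reads in replicate 1 and 29.5% in replicate 2, entered no gene. Genes of miRNAs with several copies can therefore stand too low here. Hairpins of the group shared at most 14 bases with another miRNA gene, so its ranks and the contrast of medians may be too high. That contrast also sets a list of names, without the scarcer genes of its window, against all detected genes. By Euclidean distance in log2(CPM + 1) over the 2 libraries, the genes outside the group most like Mir127 were Mir203 (0.07), Mir106b (0.11), Mir351 (0.21), Mir652 (0.23) and Mir130b (0.33). Mir203, at 7971 and 8804 CPM in replicates 1 and 2, was below Mir127 in replicate 1 and above it in replicate 2. Such likeness over 2 libraries of 1 tissue reflects level only.

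In uniquely mapped reads, the other counted plus-strand miRNA genes between the start of Meg3 and the end of the group reached at most the level of Mir673. Mir493, between Mir673 and Mir337, had 106 and 123 CPM in replicates 1 and 2, and Mir770, within the span of Meg3, had 73.2 and 58.1 CPM. Mir3070a had 11 and 14 counts and Mir3070b 1 and 3 counts. Mir432, which lies opposite Rtl1 between Mir434 and Mir136, had 0 counts in both libraries. For reads that map to 1 place, this allows up to 0.506 and 0.4997 CPM (3 counts). Mir1906-1 had 0 counts as well. Its name is numbered as a gene copy, and reads that map to several places entered no gene, so no limit was set for it. Together these plus-strand neighbours reached 183 ± 1.7 CPM, against 8253 CPM for Mir127 alone.

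**Figure D4:**
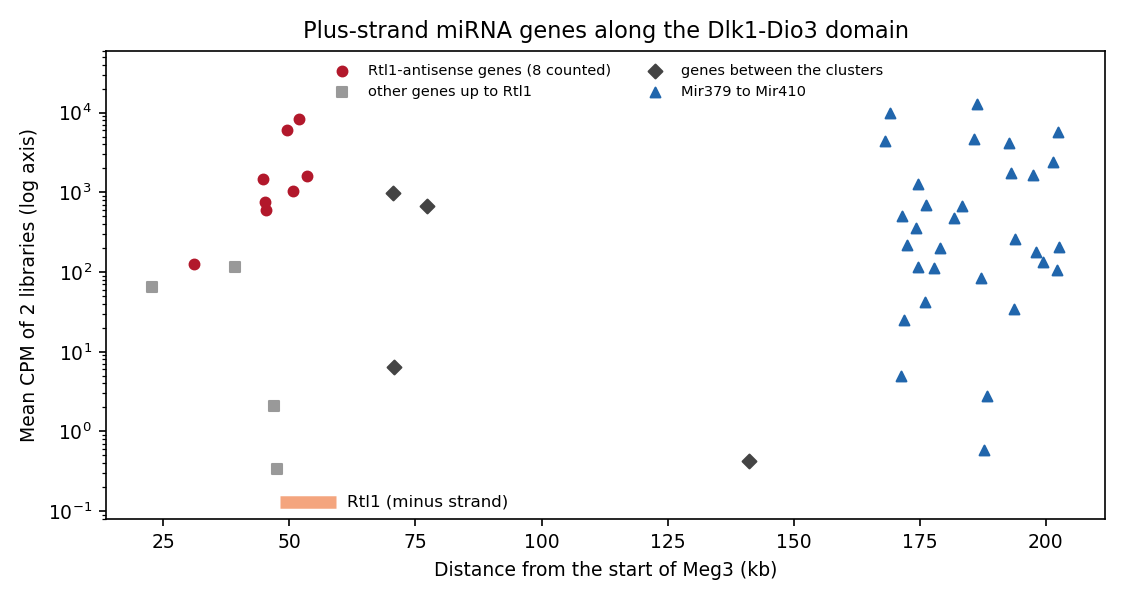
Mean CPM of 2 limb libraries on a log axis for counted plus-strand miRNA genes against distance in kilobases from the start of Meg3, with Rtl1 as a bar. Genes with 0 counts in both libraries are not drawn. The Rtl1-antisense genes lie between 126 and 8253 CPM, and the genes from Mir379 to Mir410 reach from under 1 CPM to 12961 CPM.

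Other plus-strand miRNA genes lay between the group and Mir379. Mir341 stood at 985 and 995 CPM in replicates 1 and 2, and Mir370 at 715.5 and 621 CPM. Mir1188, Mir882 and Gm23912 had at most 46 counts in a library. The larger cluster of distal genes from Mir379 to Mir410, in the same maternal unit, was taken for comparison. Of 38 plus-strand genes annotated there, 33 were counted and 30 detected. The Rtl1-antisense genes held 1.99% ± 0.07 of sense counts and the distal genes 5.35% ± 0.06 (SD, n = 2). The log2 ratio of the Rtl1-antisense over the distal sum was -1.45 in replicate 1 and -1.40 in replicate 2. Per gene the order turned round: the median was 1259 ± 81 CPM for the 8 Rtl1-antisense genes and 225 ± 23 CPM for the 33 distal ones, a log2 ratio of medians of 2.49. The 2 medians rest on sets drawn by unlike rules. The distal set is every counted plus-strand gene, with Mir654 and Mir453 at 0 counts. The Rtl1-antisense set is a list of names without the scarcer genes of its window, such as Mir432 at 0 counts. How far the turn depends on this was not tested. Only Mir487b (12961 ± 283 CPM) and Mir411 (10056 ± 883 CPM) among the counted distal genes lay above Mir127, and the next, Mir369, lay at 5735 ± 175 CPM, below Mir431. The 5 distal genes with no row of their own are missing from these values. Reads over 4 of them can be seen as antisense counts of the minus-strand genes they overlap. Over Mir409 they stood at 7541 CPM (replicate 1) and 8581 CPM (replicate 2), above Mir431 in both libraries and above Mir127 in replicate 2. Over Mir299a, Mir380 and Mir376a they came to between 1475 and 3843 CPM. With 2 libraries neither ratio was tested.

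The value of Mir136 could not be had from the deposited tables. Its hairpin (chr12:109595327-109595388, plus strand) is overlapped on the other strand by the gene that GENCODE M21 names Mir3071. That identifier was counted, with 2320 and 2134 counts in the sense column of replicates 1 and 2, or 391 and 355 CPM. Its antisense column held 7 and 3 counts, 0.301% and 0.14% of its counts on both strands. By contrast, on the 4 counted minus-strand miRNA genes of M21 among the distal genes, at least 99.8% of counts in replicate 1 and 99.7% in replicate 2 were antisense. The identifier had version 1 in the deposited tables and version 2 in M21, and the authors' annotation, M4, was not used here. The strand it was counted on is therefore not known, and its value was given to neither Mir136 nor Mir3071. Their mature sequences differ, as shown by miR-136-5p above and this arm of miR-3071 (RefSeq, minus strand, seed in capitals), whose bases overlap it:
miR-3071-3p: aUCAUCAAaacaaauggagucc

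On the strand opposite the 8 counted genes, that of Rtl1, few reads were found. Antisense counts summed to 9 in replicate 1 and 13 in replicate 2, or 0.00785% and 0.0106% of the counts on both strands there. Such low counts were the rule: the 33 counted distal genes summed to 0 antisense counts in both libraries, and 334 of the 372 detected miRNA genes had none. Over all miRNA genes the antisense share was 3.17% in replicate 1 and 3.26% in replicate 2, but 96.5% of those counts in each library lay on 7 genes that had at most 30 sense counts. Mir431, Mir127 and Mir434, which lie opposite Rtl1, had 0 antisense counts in either library, and Mir433 had 1 and 0. For Mir127 this allows an antisense share of up to 0.00625% in replicate 1 and 0.00594% in replicate 2. Since these were libraries of short RNA, such counts say nothing of the level of Rtl1 messenger RNA.

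Nearly all antisense counts lay over Mir337, with 8 in replicate 1 and 13 in replicate 2. They were 0.0948% (exact 95% binomial interval 0.0409 to 0.187) and 0.143% (0.076 to 0.244) of its counts on both strands. The minus-strand gene Mir3544 is annotated within the Mir337 hairpin and had no row of its own, so these reads were counted only as antisense to Mir337.

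Between the 2 libraries the genes of the group moved little. The log2 ratio of replicate 2 over replicate 1 ran from -0.09 for Mir665 to 0.19 for Mir433. Its median was 0.07, against -0.02 over the 444 genes tested. Without regard to sign, the median was 0.086 for the 8 genes and 0.125 for the 190 genes of at least 100 CPM, so small differences were common among abundant genes. Of the 8 genes, 5 were higher in replicate 2 and 3 lower. The tally depended on the scaling. Under TMM factors 6 were higher and 2 lower, and Mir540 turned. The DESeq2 factors were 1 in both libraries, so that setting compared counts without scaling for depth. There 7 were higher and 1 lower, and Mir540 and Mir434 turned. None was called (exact binomial test on counts, Benjamini-Hochberg adjusted p under 0.05 and an absolute log2 ratio of at least 1), where 3.38% of all tested genes were; 5 of the 8 and 201 of the 444 tested genes had an unadjusted p under 0.05. By the adjusted p alone 5 of 8 passed, where 40.3% of all tested genes and 72.1% of the 190 genes of at least 100 CPM did.

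Those 5 were Mir431 (log2 ratio 0.13, adjusted p = 5.82e-34, exact binomial test), Mir433 (0.19, adjusted p = 3.46e-12), Mir127 (0.06, adjusted p = 9.51e-09), Mir337 (0.09, adjusted p = 9.71e-05) and, lower in replicate 2, Mir665 (-0.09, adjusted p = 0.0276). This exact test compares the 2 libraries and counts only counting error, so it passes small differences in abundant genes. By the edgeR exact test with the common dispersion, none of the 8 and 38 of the 444 genes had an unadjusted p under 0.05. That dispersion was estimated from the difference between these same 2 libraries, so this count is no measure of how stable the genes are.

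**Figure D5:**
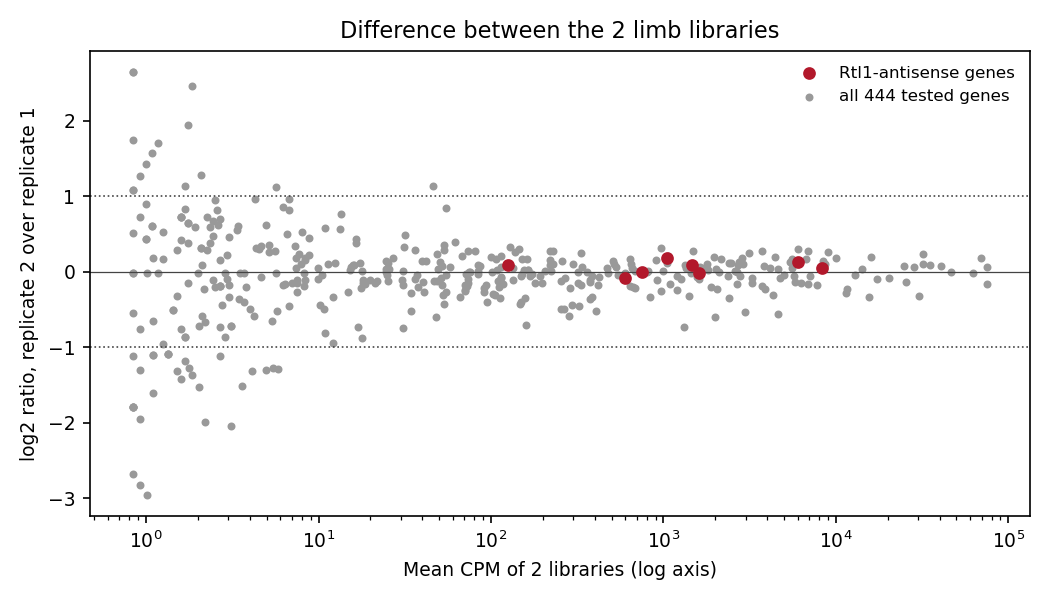
The log2 ratio of replicate 2 over replicate 1 against mean CPM on a log axis for the 8 Rtl1-antisense genes (large points) and all 444 tested miRNA genes (small points), with dotted lines at a log2 ratio of 1 and -1. The 8 genes lie between -0.09 and 0.19, and ratios past the dotted lines are found among scarcer genes.

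Of the 18 seeds of the group, 2 recur in a RefSeq mature miRNA of another gene. The sequences are shown to make plain that only the seed is shared:
miR-673-5p: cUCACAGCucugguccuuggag
miR-6985-3p (chromosome 19): cUCACAGCcaccuccucacag
miR-540-3p: aGGUCAGAggucgauccugg
miR-6915-5p (chromosome 10): aGGUCAGAgcagauggagguucgu
Mir673 had 723 and 776 counts in replicates 1 and 2, against 0 and 3 counts for Mir6985. Mir6915 had no row of its own in these tables. The seeds of Mir127, Mir431, Mir433, Mir434 and Mir136 were shared with no other RefSeq mouse miRNA.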

How the data were processed

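MicroRNA-seq of 2 limb samples gave 1 table each. The authors deposited whole-number read counts per miRNA gene in 3 columns, taken here from their layout as either strand, sense and antisense, since no header names them; the first equals the sum of the others in all 1973 genes. The deposited tables use build mm10 and, per the notes beside them, annotation M4; the aligner is not given in the sources used here, nor is the counter. Lines naming no gene stayed out of library sizes: unmapped reads were 17.2% and 18.6%, multimapping reads 30.8% and 29.5%, and reads outside genes 4.24% and 4.48% in the sense column, in replicates 1 and 2.

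Symbols, coordinates and Rtl1 exons came from GENCODE M21 (GRCm38, the mm10 build; 1894 identifiers matched), sequences from RefSeq GRCm38.p6 and M21 transcripts. The members, lists and tests were chosen with earlier results of these data known. Genes with at least 10 counts over both libraries were compared by an exact binomial test (two-sided, p-values adjusted by Benjamini-Hochberg), with 0.5 counts added for ratios. The method was run on simulated counts that held counting error only. They lacked the further spread between the real libraries, so that run cannot show how the test behaves on these data. Alternatives used edgeR 4.0.16 and DESeq2 1.42.0 in R 4.3.3, with SciPy 1.17.1 for the rest. Besides the members, genes were named by position near Meg3 and Rtl1 or between the group and Mir379. Others were named by likeness to Mir127 (5 genes), by shared seed, and as the 3 most abundant distal genes.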

Additional observations from a re-analysis of the deposited data

Results flagged for a closer look

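Reads on the strand opposite Mir337 were above the limit that a count of 0 allows (3 counts) in both libraries, 8 in replicate 1 and 13 in replicate 2, in a column that the levels above do not use. The other counted members had at most 1 antisense count in a library.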

How the results depend on the processing

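The share of the 8 genes in sense counts, 1.99%, was 0.946% of all reads, 1.82% of uniquely mapped reads and 1.16% without Mir127; on either strand or in each library alone it lay between 1.92% and 2.04%. The log2 ratio of these genes over the distal genes, -1.43, reversed to 2.49 between medians, was -1.80 without the most abundant gene of each side, and was -1.80 with antisense counts over minus-strand distal genes added, an alternative chosen after seeing the data; in each library alone it ran from -1.45 to -1.40. The reversal between medians sets a list of names against all counted distal genes, so its size may depend on that unlike choice. The ratio of genes opposite Rtl1 over those before it kept its sign under every alternative tried, from 2.49 to 2.55. Of all tested genes 15 were called between the libraries, 179 without the minimum ratio and 1 by the edgeR exact test, whose dispersion came from the same 2 libraries. Among the 8 genes none was called, except 5 without the minimum ratio. TMM and DESeq2 factors moved the mean of no gene of the 8 by more than 0.0433% and its level in a library by no more than 0.642%. These changes turned the direction between libraries of Mir540 (both) and Mir434 (DESeq2). The DESeq2 factors were 1 in both libraries, so both were divided by the same total and depth was not corrected. That alternative cannot show how levels depend on a correction between libraries. Detection of 8 of 8 held at minimums of 1 to 100 counts. No paired analysis was possible because there is 1 group.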
